A study of Mus musculus with 8 samples.

Results

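The 10 genes described here encode the receptors through which NK cells sense IL-12, IL-18 and IL-21, with the kinases, STAT factors and adaptor that act directly below them: Il12rb1, Il12rb2, Il18r1, Il18rap, Il21r, Jak2, Tyk2, Stat3, Stat4 and Myd88. They were chosen by symbol from the 48321 gene symbols listed for every library, and all 10 were among the 12595 genes with enough counts to be tested. The libraries are RNA-seq of NK cells freshly sorted as CD45+ TCRb- NK1.1+ cells from lung or spleen of C57/Bl6 mice, with 2 libraries for each of 4 groups: lung WT, lung KO, spleen WT and spleen KO. KO stands for homozygous Ccl5ΔPE/ΔPE mice, in which Cas9 and a pair of guide RNAs removed the proximal enhancer of Ccl5 (Ccl5-PE) from the germ line, so that every cell carries the deletion and the WT groups carry none. The study's mice were a few months old and of both sexes unless stated otherwise, with no age or sex given for these libraries. Mouse lines were housed and bred apart, so the deletion and the breeding line cannot be told apart. Where an effect of the deletion is named below, it means the difference of KO from WT.

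IL-12 is bound by a pair of chains, IL12RB1 and IL12RB2, which carry the kinases TYK2 and JAK2 and activate STAT4. IL-18 is bound by IL18R1, which takes up the accessory chain IL18RAP and passes the signal through the adaptor MYD88 to NF-κB and p38, whereas IL-21 is bound by IL21R together with the common γ-chain and acts largely through STAT3. In NK cells these cytokines are known as inducers of IFN-γ and of cytotoxic function, and IL-12 and IL-18 act together in this.

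Libraries held 3132963 to 26482366 reads counted on genes, with 1 spleen KO library much deeper than the others. Ccl5 itself was at 18315 and 19482 CPM (counts scaled to library size with TMM factors, the trimmed mean of M-values) in lung WT against 2986 and 3188 CPM in lung KO, with log2 changes of -2.61 in lung KO and -2.67 in spleen KO (SE 0.04 each). All 8 NK cell markers were counted in every library. Their summed level was 50305 to 51861 CPM in lung WT, 39579 to 39937 CPM in lung KO, 36295 to 36869 CPM in spleen WT and 47541 to 49840 CPM in spleen KO. It was therefore lower in KO than in WT in lung and higher in spleen, and its part in the results below was not tested. Most of this sum came from Gzma and Nkg7. By the test used below, 6 of the 8 markers were lower and 1 (Prf1) was higher in lung KO. In spleen KO 7 were higher and 1 (Prf1) was lower. The shares over all genes are given below. The 9 T cell markers summed to 414.2 to 433.6 CPM in lung WT and 325.1 to 344.4 CPM in lung KO. In spleen they summed to 547.8 to 559.5 CPM in WT and 599.2 to 632.5 CPM in KO. The 6 B cell markers summed to 295.5 to 307.2 CPM in lung WT and 247.5 to 252.1 CPM in lung KO. In spleen they summed to 516.1 to 530.1 CPM in WT and 615.8 to 630.6 CPM in KO. Both sums were thus lower in KO in lung and higher in KO in spleen. The 8 myeloid markers summed to 157.6 to 180.4 CPM, with 4 of them (Adgre1, S100a8, S100a9 and Csf3r) at 0 in every library. The 6 markers of innate lymphoid cells of group 2 summed to 326.2 to 420.1 CPM, nearly all of it from Gata3, with Il5 and Il13 at 0 throughout. Their sum was 361.2 to 364.1 CPM in lung WT and 402.3 to 420.1 CPM in lung KO. In spleen it was 400.7 to 406.1 CPM in WT and 326.2 to 329.5 CPM in KO. The part of these marker sums in the results below was not tested. The 6 markers of lung epithelium and endothelium summed to 307.2 to 315.5 CPM in lung WT, 407.4 to 443.6 CPM in lung KO and 65.1 to 75.2 CPM in spleen. In lung, Sftpc rose from a mean of 153.64 CPM in WT to 266.00 CPM in KO, and Pecam1 and Cldn5 also rose. Scgb1a1 fell from 85.19 to 62.02 CPM, and Cdh5 also fell. The spleen sum was nearly all Pecam1, with Sftpc, Scgb1a1, Cdh5 and Cldn5 at 0 there. These are bulk libraries, in which fewer cells of a type and less RNA per cell cannot be told apart.

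Levels of the 10 genes were first compared with each other as RPKM, which is CPM per kilobase of exon. The length is that of all annotated exons of a gene together, and the order of genes depends on it. The accessory IL-18 chain Il18rap was the most abundant in all 4 groups, at 163.6 to 184.1 RPKM in the 8 libraries. Il12rb2 and Stat4 followed. For lung WT libraries the RPKM ranges of these were 77.2 to 81.4 and 78.1 to 78.9 and overlapped. In lung KO Il12rb2 was above Stat4, and in spleen of both genotypes Stat4 was above Il12rb2. In the annotation 40.04% of the exon bases of Il12rb2 overlap Serbp1, and 26.68% of those of Stat4 overlap Gm28177. How reads in shared bases were counted is not stated, so the order of Il12rb2 and Stat4 is uncertain. Stat3, Myd88 and Il18r1 lay between 21.9 and 44.9 RPKM in all libraries, and Jak2, Tyk2 and Il21r between 6.57 and 14.2 RPKM. The ranges of Jak2 and Tyk2 overlapped in lung of both genotypes, whereas in spleen Jak2 was above Tyk2. Il12rb1 was the least abundant in every library, at 1.22 to 3.23 RPKM.

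**Figure D1:**
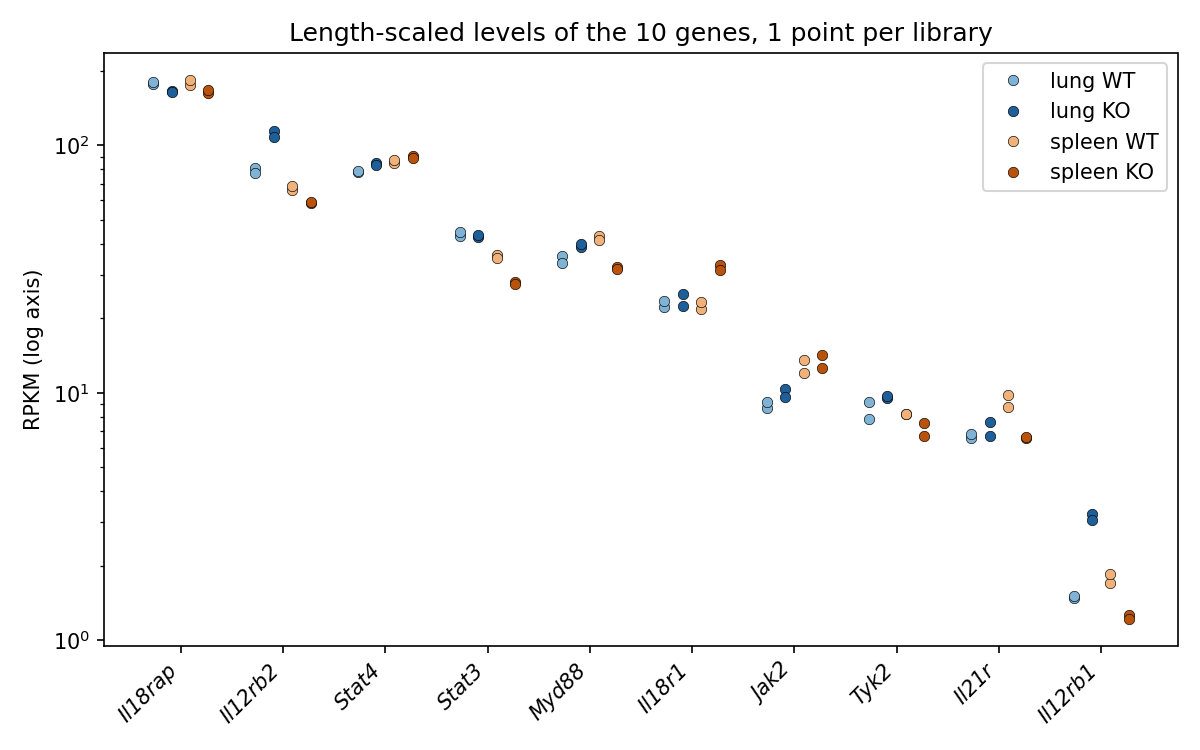
RPKM (log axis) of the 10 genes, ordered by their level in lung WT, with 1 point per library and 1 color per group. Il18rap lies at 163.6 to 184.1 RPKM and Il12rb1 at 1.22 to 3.23 RPKM in all 8 libraries, and the order of the other genes changes little between groups.

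The paired receptor chains thus differed widely in transcript level. The ratio of Il12rb2 to Il12rb1 in RPKM was 51.1 and 54.9 for lung WT libraries but 35.2 and 35.4 for lung KO libraries, and it was 37.1 and 39.0 for spleen WT libraries but 45.9 and 48.2 for spleen KO libraries. It was lower in KO than in WT in lung and higher in spleen, without overlap. The genes of this ratio differ in GC content, and Il12rb1 rests on 16 to 131 reads per library. The size of the ratio also depends on how reads in the bases that Il12rb2 shares with Serbp1 were counted. With the GC offset described below, the log2 changes of Il12rb1 and Il12rb2 were 0.69 and 0.44 in lung, and -0.25 and -0.19 in spleen. They lay closer together than without it (1.07 and 0.48 in lung, -0.55 and -0.21 in spleen). The ratio of Il18rap to Il18r1 was 6.61 to 7.99 over the lung libraries of both genotypes, 7.90 and 8.06 for spleen WT libraries, and lowest for spleen KO libraries, at 4.99 and 5.38. For the STAT factors, Stat4 exceeded Stat3 in RPKM by 1.76 and 1.82 times in lung WT and by 3.23 and 3.24 times in spleen KO, with the other groups between. This order rests on exon lengths of 9527 bp for Stat3 and 3872 bp for Stat4. In CPM, Stat3 was above Stat4 in lung, at means of 418.34 against 303.96 in WT and 408.76 against 325.98 in KO. Spleen means were 339.10 against 333.85 CPM in WT and 264.58 against 348.32 CPM in KO.

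In lung 5 of the 10 genes differed between KO and WT at a false discovery rate (FDR) under 0.05 in edgeR's quasi-likelihood test. Of these, 4 were higher and 1 was lower in KO. In spleen 8 differed, with 1 higher and 7 lower in KO. Over all genes tested, 29.2% were called higher and 26.4% lower in lung KO, and 28.2% higher and 28.9% lower in spleen KO. The median log2 change of the 10 genes was 0.13 in lung and -0.24 in spleen, beside 0.02 and 0.00 over all genes. With a change of at least 1.5-fold also required, 1 of the 10 was called in lung, where 26.7% of all genes were, and 0 in spleen, where 23.8% were. Changes that passed the test were thus under 1.5-fold except that of Il12rb1 in lung.

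The effects of the deletion in lung and in spleen were then compared directly, as the lung effect minus the spleen effect. The difference passed the test for 7 of the 10 genes, positive in 6 (Il12rb1, Il12rb2, Il21r, Tyk2, Stat3 and Myd88) and negative in 1 (Il18r1). Of all genes tested 32.5% had a positive and 29.0% a negative difference, and 43.3% had a difference of at least 1.5-fold, against 2 of the 10 (Il12rb1 and Il12rb2). The median difference of the 10 was 0.38, beside 0.03 over all genes, and it was 0.10 once the trend with GC content described below was taken out. Il12rb1, Il12rb2 and Myd88 were each higher in lung KO and lower in spleen KO, which is 30.0% of the 10 genes, beside 14.2% of all genes tested. Opposite directions were common over all genes. Of 4367 genes called in both organs, 1790 had this pattern, 1612 had the reverse and 965 moved in the same direction. Of the 10 genes, 4 were called in both organs, 3 with this pattern and 1 in the same direction. The 10 genes were chosen with earlier results of these data known, so these shares are descriptions only. With the GC trend taken out, only Il12rb2 of Il12rb1, Il12rb2 and Myd88 was called in both organs. Without that step, only Il18rap among the 10 passed the test in the same direction in both organs. With it, both Il18rap and Stat3 were called lower in both organs.

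**Figure D2:**
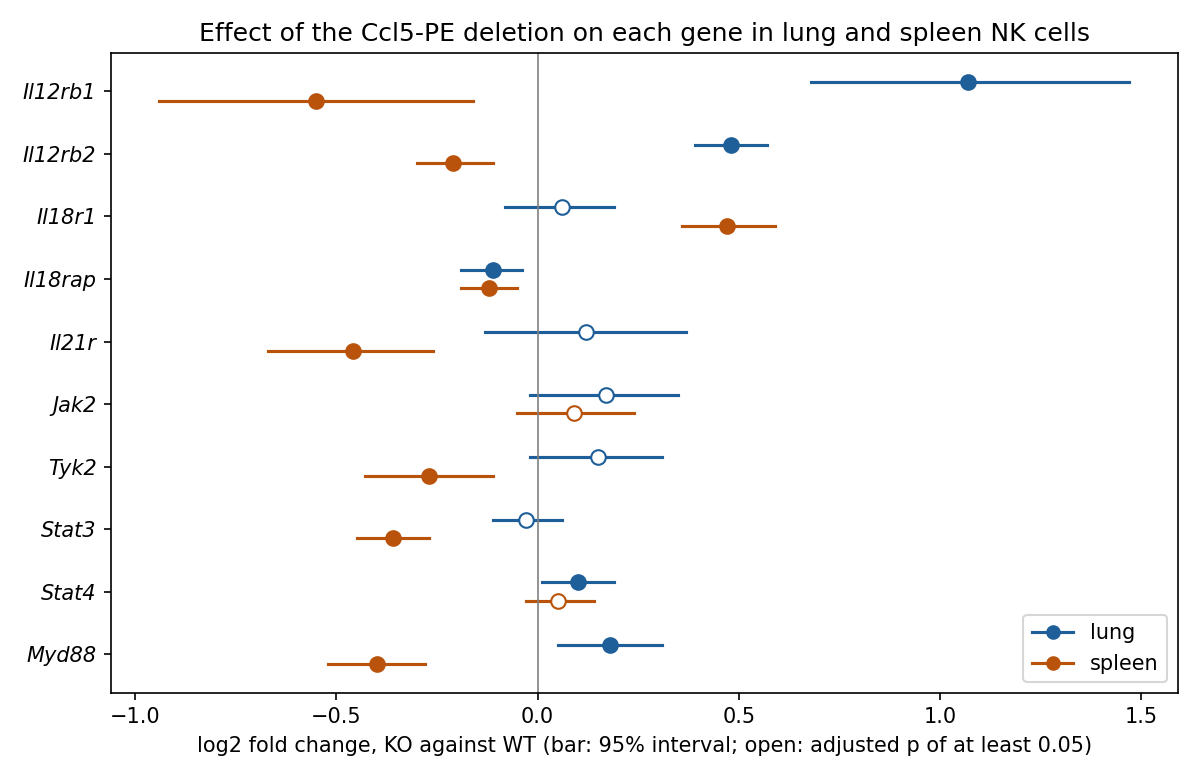
Log2 fold change of each gene in KO against WT, in lung (blue) and in spleen (orange), with 95% intervals from the quasi-likelihood fit to the 8 libraries, 2 per group. Filled points passed an adjusted p of 0.05. Il12rb1, Il12rb2 and Myd88 have filled points to the right of 0 in lung and to the left of 0 in spleen, and the points of Il18rap nearly coincide.

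A property of the transcripts moved with these effects. Across genes, the effect of the deletion rose with GC content in lung and fell with it in spleen (Spearman's rho 0.289 and -0.271, and 0.334 for the difference, across 12504 genes, which are not independent replicates). Among the 10, Il12rb1 (58.4% GC), Tyk2 (57%), Il21r (54.8%), Myd88 (53.5%) and Stat3 (52.5%) lay above the median of 48.8% and all had a positive difference, whereas Il12rb2 (48.2%), Stat4, Il18rap, Jak2 and Il18r1 lay below it. An offset that takes from each library its own trend with GC content was therefore used as an alternative, and its values are given below for each of the 10 genes whose call it changed. Under this offset 3 of the 10 were called higher and 3 lower in lung, 1 higher and 5 lower in spleen, and 2 positive and 1 negative for the difference. The median change of the 10 was then 0.02 in lung, -0.18 in spleen and 0.10 for the difference. With library totals in place of TMM scaling, 6 were higher and 0 lower in lung, where the split over all genes also moved, to 35.1% higher and 20.3% lower (38.9% and 22.4% for the difference).

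In lung, the IL-12 receptor chains changed the most of the 10 genes. Il12rb1, the chain that binds the p40 subunit and is shared with the IL-23 receptor, lies at chr8:70808449-70821424 on the plus strand (GRCm38). It was at 6.08 and 6.21 CPM in lung WT, 13.3 and 12.6 CPM in lung KO, 6.98 and 7.58 CPM in spleen WT, and 5.21 and 5.01 CPM in spleen KO. The lung KO libraries thus stood above all others, and the spleen KO libraries were the lowest, with no overlap between any groups. Its log2 change was 1.07 (SE 0.19, adjusted p 1.4e-05) in lung and -0.55 (SE 0.19, adjusted p 0.0150) in spleen, and the difference was 1.62 (95% interval 1.06 to 2.18, adjusted p 3.8e-06). These values rest on 16 to 131 reads per library. With the GC offset the changes were 0.69 in lung (adjusted p 0.00308) and -0.25 in spleen (adjusted p 0.284), and the spleen call was also lost without spleen WT replicate 2 or spleen KO replicate 2 (adjusted p 0.216 and 0.303) and with DESeq2 (-0.52, adjusted p 0.233).

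Il12rb2, the signalling chain that recruits STAT4, lies at chr6:67291318-67376188 on the minus strand. It was at 309 and 293 CPM in lung WT, 434 and 411 CPM in lung KO, 252 and 260 CPM in spleen WT, and 221 and 223 CPM in spleen KO. Its groups did not overlap, and their order from high to low was lung KO, lung WT, spleen WT, spleen KO. The log2 change was 0.48 (SE 0.04, adjusted p 1.6e-11) in lung and -0.21 (SE 0.05, adjusted p 2.8e-04) in spleen, and the difference was 0.68 (95% interval 0.55 to 0.81, adjusted p 1.1e-11). Under the GC offset these were 0.44, -0.19 and 0.63, all still called. In the annotation 40.04% of its exon bases overlap exons of Serbp1, an RNA-binding protein gene on the opposite strand, and whether counting used strand is not stated. Between genotypes Serbp1 moved unlike Il12rb2, by -0.10 in lung and 0.04 in spleen. Between organs it was higher in lung, as Il12rb2 was, at means of 1051.99 against 832.02 CPM in WT and 980.16 against 851.41 CPM in KO. Its part in the Il12rb2 counts was not tested.

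**Figure D3:**
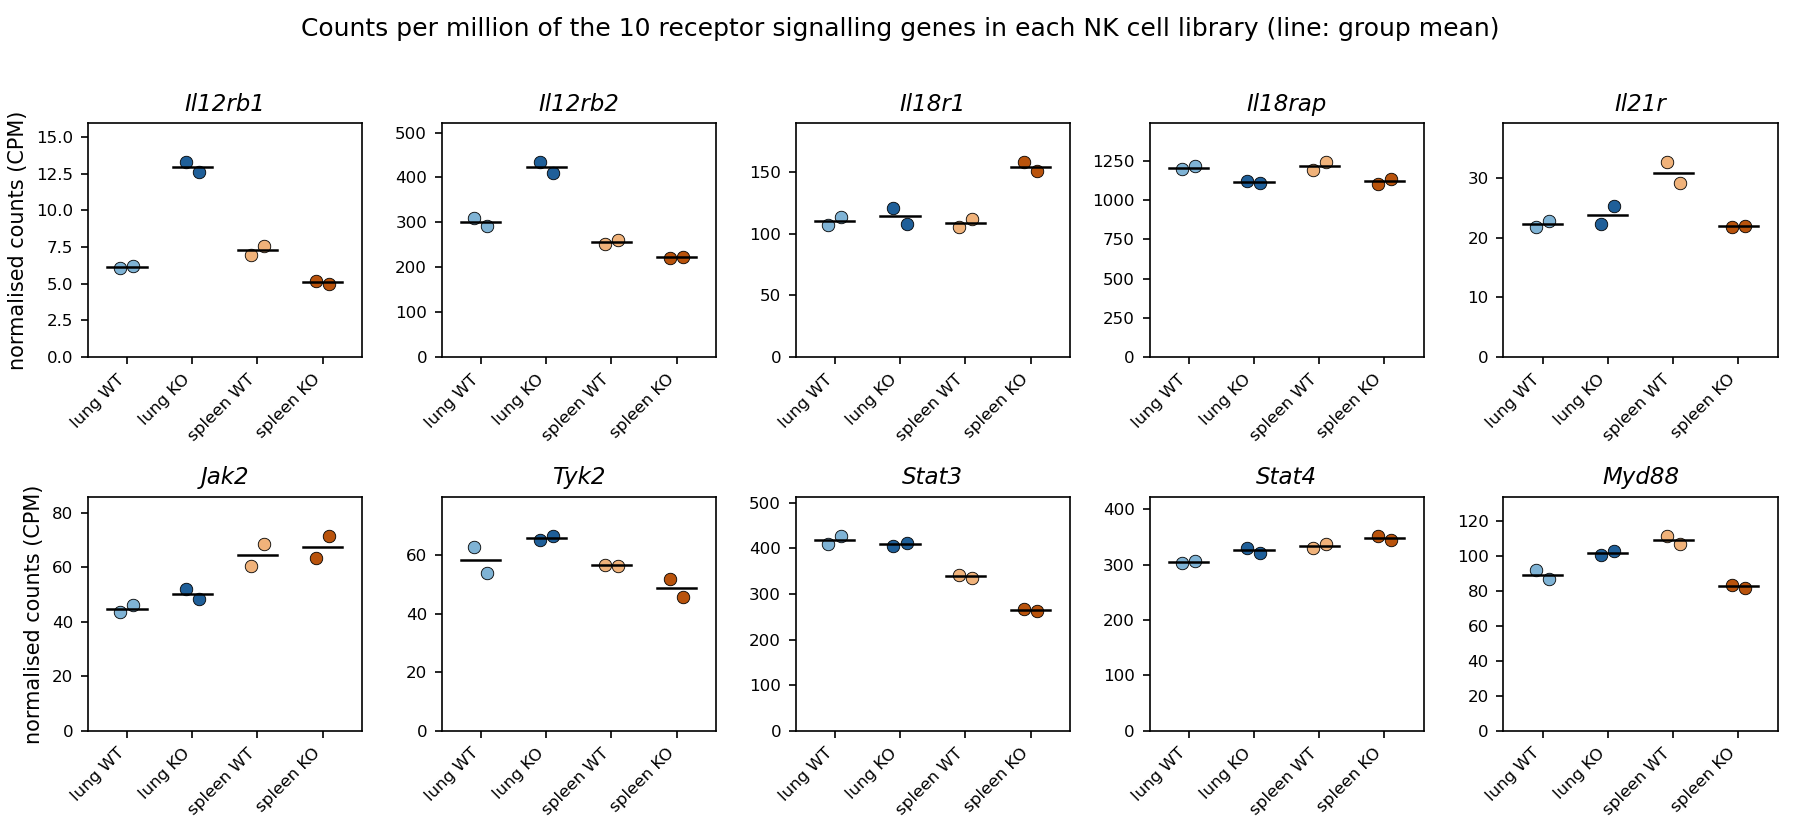
CPM of each of the 10 genes in the 8 libraries, by group, with a line at the group mean and axes from 0. Lung KO is highest for Il12rb1 and Il12rb2, spleen KO is highest for Il18r1 and lowest for Stat3 and Myd88, and the groups of Il18rap and Stat4 lie close together.

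Stretches upstream of RefSeq start sites of 2 genes that moved in opposite directions are printed here so that the letters behind a motif count can be seen. Of the 10 genes, 9 had an entry among RefSeq promoters of build GRCm38.p6 (250 bases before to 50 bases after a start), Il12rb1 being without one. The STAT letters TTCNNNGAA, searched on both strands, were in 3 of the 12 entries of these genes (Il12rb2, Il18r1 and Myd88), with Il18r1 counted for 1 of its 3 entries, and in 8.3% of 32851 entries in all. The T-box letters TCACACC were in 1 of the 12 (Myd88) and in 4.0% of all entries, and the RUNX letters ACCACA were in 3 of the 12 (Il18r1, Il18rap and Il21r) and in 16.8%. For Il12rb2 the 250 bases before the start, chr6:67376189-67376438 on the minus strand, hold the STAT letters 123 bases before it. For Myd88 the printed 227 bases, chr9:119340042-119340268 on the minus strand, hold the T-box letters 151 bases and the STAT letters 46 bases before the start. This RefSeq start lies within the span of Myd88 in the GENCODE annotation given below, so the stretch is upstream of an internal start of that gene model. A match describes letters and is not a binding site. Capitals mark the motif letters.
Il12rb2: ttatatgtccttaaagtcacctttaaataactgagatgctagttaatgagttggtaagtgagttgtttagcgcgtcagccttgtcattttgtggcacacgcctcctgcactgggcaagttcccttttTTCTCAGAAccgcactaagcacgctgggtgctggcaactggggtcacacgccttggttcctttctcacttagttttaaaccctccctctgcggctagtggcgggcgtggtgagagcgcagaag
Myd88: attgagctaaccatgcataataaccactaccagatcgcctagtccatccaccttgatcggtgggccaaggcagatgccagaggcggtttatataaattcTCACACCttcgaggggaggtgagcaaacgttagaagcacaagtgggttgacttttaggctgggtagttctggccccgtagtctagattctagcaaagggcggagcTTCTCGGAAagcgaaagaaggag

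Of the kinases of the IL-12 receptor, Jak2 did not pass the test in either organ and Tyk2 passed it in spleen. Jak2 (chr19:29251828-29313080, plus strand), the kinase carried by IL12RB2, was at 43.7 and 46.0 CPM in lung WT, 52.1 and 48.3 CPM in lung KO, 60.6 and 68.5 CPM in spleen WT, and 63.5 and 71.5 CPM in spleen KO. It was higher in every spleen library than in every lung library, while the genotypes overlapped in spleen. Its change did not pass the test in lung (0.17, 95% interval -0.02 to 0.35, adjusted p 0.127) or in spleen (0.09, -0.05 to 0.24, adjusted p 0.272).

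Tyk2 (chr9:21104068-21131243, minus strand), the kinase carried by IL12RB1, was at 62.9 and 53.8 CPM in lung WT, 65.2 and 66.7 CPM in lung KO, 56.6 and 56.5 CPM in spleen WT, and 51.8 and 45.8 CPM in spleen KO. The WT groups of both organs overlapped, lung KO lay above them and spleen KO below. The lung change was 0.15 (SE 0.08, adjusted p 0.129), the spleen change -0.27 (SE 0.08, adjusted p 0.00338), and the difference 0.42 (SE 0.11, adjusted p 0.00169). These did not hold under the GC offset, where the values were -0.19, 0.00 and -0.19 (adjusted p 0.0417, 0.990 and 0.143). Without spleen KO replicate 2 the spleen change was -0.13 and the difference 0.27, neither of them called, and without spleen WT replicate 2 the spleen change had an adjusted p of 0.0505. With DESeq2 neither the spleen change (-0.23, adjusted p 0.171) nor the difference (0.38, adjusted p 0.0821) was called. The lung change was called without lung WT replicate 1 (0.29, adjusted p 0.0411). In the annotation 8.07% of the exon bases of Tyk2 overlap 1700084C06Rik, an antisense gene with 6 to 60 reads per library, which was higher in lung KO (1.37) with a spleen value of -0.24 (adjusted p 0.524).

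Stat4 (chr1:51987148-52107189, plus strand), the main STAT factor of IL-12, was among the steadiest of the 10. It was at 302 and 306 CPM in lung WT, 330.2 and 322 CPM in lung KO, 329.8 and 338 CPM in spleen WT, and 352 and 345 CPM in spleen KO. Lung WT was lowest and spleen KO highest, a spread of 1.15 times between group means. The lung change of 0.10 had an adjusted p of 0.0490, which was lost without any one of the 4 lung libraries (0.08 to 0.12), without spleen KO replicate 2 (adjusted p 0.0649) and in 12 of 21 alternatives in all. The spleen change was 0.05 (95% interval -0.03 to 0.14, adjusted p 0.292), and the difference was 0.05 (-0.07 to 0.17). Gm28177, a processed transcript on the same strand, shares 26.68% of the exon bases of Stat4 and had at most 2 reads in any library. How reads in the shared bases were assigned is not stated.

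The chains of the IL-18 receptor did not move together. Il18r1 (chr1:40465552-40500854), the binding chain, and Il18rap (chr1:40515362-40551705), its accessory chain, are neighbors on the plus strand, 14.5 kb apart. Il18r1 was at 107 and 113 CPM in lung WT, 121 and 108 CPM in lung KO, 105 and 112 CPM in spleen WT, and 158 and 151 CPM in spleen KO. The first 3 groups overlapped and spleen KO stood above them. The spleen change was 0.47 (SE 0.06, adjusted p 1.0e-08), the lung change 0.06 (95% interval -0.08 to 0.19, adjusted p 0.480) and the difference -0.42 (SE 0.09, adjusted p 9.2e-05). Under the GC offset both calls stood, at 0.40 in spleen and -0.31 for the difference.

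Il18rap was at 1200 and 1216 CPM in lung WT, 1120.4 and 1109.9 CPM in lung KO, 1191 and 1243 CPM in spleen WT, and 1105 and 1137 CPM in spleen KO. Both KO groups were below both WT groups, and the organs overlapped within each genotype. The change was -0.11 (SE 0.04, adjusted p 0.00729) in lung and -0.12 (SE 0.04, adjusted p 0.00513) in spleen, and the difference was 0.00 with a 95% interval of -0.10 to 0.11. The lung call was lost without lung KO replicate 2 (adjusted p 0.0657) and with library-total scaling (-0.02), and the spleen call without spleen WT replicate 2 (-0.08, adjusted p 0.124).

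Myd88 (chr9:119335934-119341411, minus strand), the adaptor of the IL-18, IL-1 and most Toll-like receptors, was at 91.8 and 86.6 CPM in lung WT, 100.3 and 103 CPM in lung KO, 111 and 107 CPM in spleen WT, and 83.4 and 81.9 CPM in spleen KO. None of the groups overlapped, with spleen WT highest and spleen KO lowest. The change was 0.18 (SE 0.07, adjusted p 0.0187) in lung and -0.40 (SE 0.06, adjusted p 4.6e-07) in spleen, and the difference was 0.58 (SE 0.09, adjusted p 5.1e-07). With the GC offset the lung value was -0.05 (adjusted p 0.512), the spleen value -0.24 (adjusted p 6.1e-04) and the difference 0.19 (adjusted p 0.0619), so only the spleen call stood. The lung call was also lost without lung WT replicate 2 or lung KO replicate 2 (adjusted p 0.103 and 0.142) and with DESeq2 (adjusted p 0.169). Acaa1a, a peroxisomal thiolase gene on the opposite strand that overlaps 11.26% of the exon bases of Myd88, moved in the same directions and further, by 0.90 in lung and -0.59 in spleen, and its part in the Myd88 counts was not tested.

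Of the IL-21 branch, Il21r (chr7:125603429-125633570, plus strand) was at 21.8 and 22.8 CPM in lung WT, 22.3 and 25.3 CPM in lung KO, 32.7 and 29.2 CPM in spleen WT, and 21.8 and 22.0 CPM in spleen KO. Spleen WT stood above the other 3 groups, which overlapped. The spleen change was -0.46 (SE 0.10, adjusted p 1.6e-04), the lung change 0.12 (95% interval -0.13 to 0.37, adjusted p 0.433) and the difference 0.58 (SE 0.16, adjusted p 0.00173). The GC offset left a spleen change of -0.26 (adjusted p 0.0245) and a difference of 0.10 (adjusted p 0.598), and with DESeq2 the difference of 0.57 had an adjusted p of 0.0737.

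Stat3 (chr11:100885098-100939540, minus strand), the main STAT factor of IL-21, was at 409 and 428 CPM in lung WT, 405 and 413 CPM in lung KO, 343 and 336 CPM in spleen WT, and 267 and 262 CPM in spleen KO. The lung genotypes overlapped and lay above both spleen groups, and spleen KO lay below spleen WT. The spleen change was -0.36 (SE 0.04, adjusted p 5.7e-09), the lung change -0.03 (95% interval -0.11 to 0.06, adjusted p 0.613) and the difference 0.33 (SE 0.06, adjusted p 8.6e-06). Under the GC offset Stat3 fell by 0.23 in both organs (adjusted p 9.4e-06 in lung and 1.1e-05 in spleen) and the difference was 0.00. Of its exon bases 0.76% overlap Stat5a on the opposite strand.

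Organ differences in WT cells were small for these genes. In WT, 2 of the 10 were higher in lung (Stat3 by 0.30 and Il12rb2 by 0.24 on the log2 scale) and 4 were lower (Jak2 -0.56, Il21r -0.45, Myd88 -0.27 and Stat4 -0.14), beside 27.7% higher and 29.3% lower of all genes. None of the 10 changed by 1.5-fold, beside 28.5% of all genes. In KO, 5 were higher in lung (Il12rb1 1.35, Il12rb2 0.92, Stat3 0.63, Tyk2 0.50 and Myd88 0.31) and 2 were lower (Jak2 -0.49 and Il18r1 -0.42), beside 33.9% and 31.7% of all genes, and 3 changed by at least 1.5-fold, beside 33.2%. Myd88 was thus lower in lung than in spleen in WT and higher in KO. Each organ comparison shares its libraries with the comparisons of genotype above. Serbp1, which overlaps Il12rb2, was also higher in lung in both genotypes. Under the GC offset 3 were higher and 3 lower in WT, and 3 higher and 2 lower in KO, and neither Myd88 value passed the test (-0.11 and 0.07). For Tyk2 the offset gave 0.28 in WT, now called (adjusted p 0.00430), and 0.09 in KO, no longer called (adjusted p 0.298, and 0.438 with the replicate block). The Stat4 call in WT was lost with DESeq2 (-0.12, adjusted p 0.0957) and without lung WT replicate 1 or spleen WT replicate 2 (-0.11 and -0.12, adjusted p 0.116 and 0.0879). With library totals 21.2% of all genes were higher and 36.4% lower in lung WT, and the median of all genes moved to -0.12.

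The other genes of these pathways were taken from 6 lists of 71 genes, of which 61 were tested. In lung 31 were higher and 9 lower in KO, in spleen 12 were higher and 31 lower, and the median changes were 0.28 and -0.27. The difference was positive for 34 and negative for 9. Over all genes, as given above, 29.2% were higher and 26.4% lower in lung, 28.2% and 28.9% in spleen, and 32.5% and 29.0% had a positive or a negative difference, and the counts of each list below stand beside the same shares. With the GC offset the 61 genes were 27 higher and 13 lower in lung, 14 higher and 25 lower in spleen, and 31 positive and 13 negative for the difference, with medians of 0.19, -0.14 and 0.37. Of the 61, 22 were higher in lung KO and lower in spleen KO (36.1%), as were 14.2% of all genes. Of the 30 called in both organs, 3 had the reverse pattern and 5 moved in the same direction. Opposite directions were common over all genes too, as given above. The lists were chosen with earlier results of these data known, so these shares are descriptions only. They were not counted under the GC offset.

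**Figure D4:**
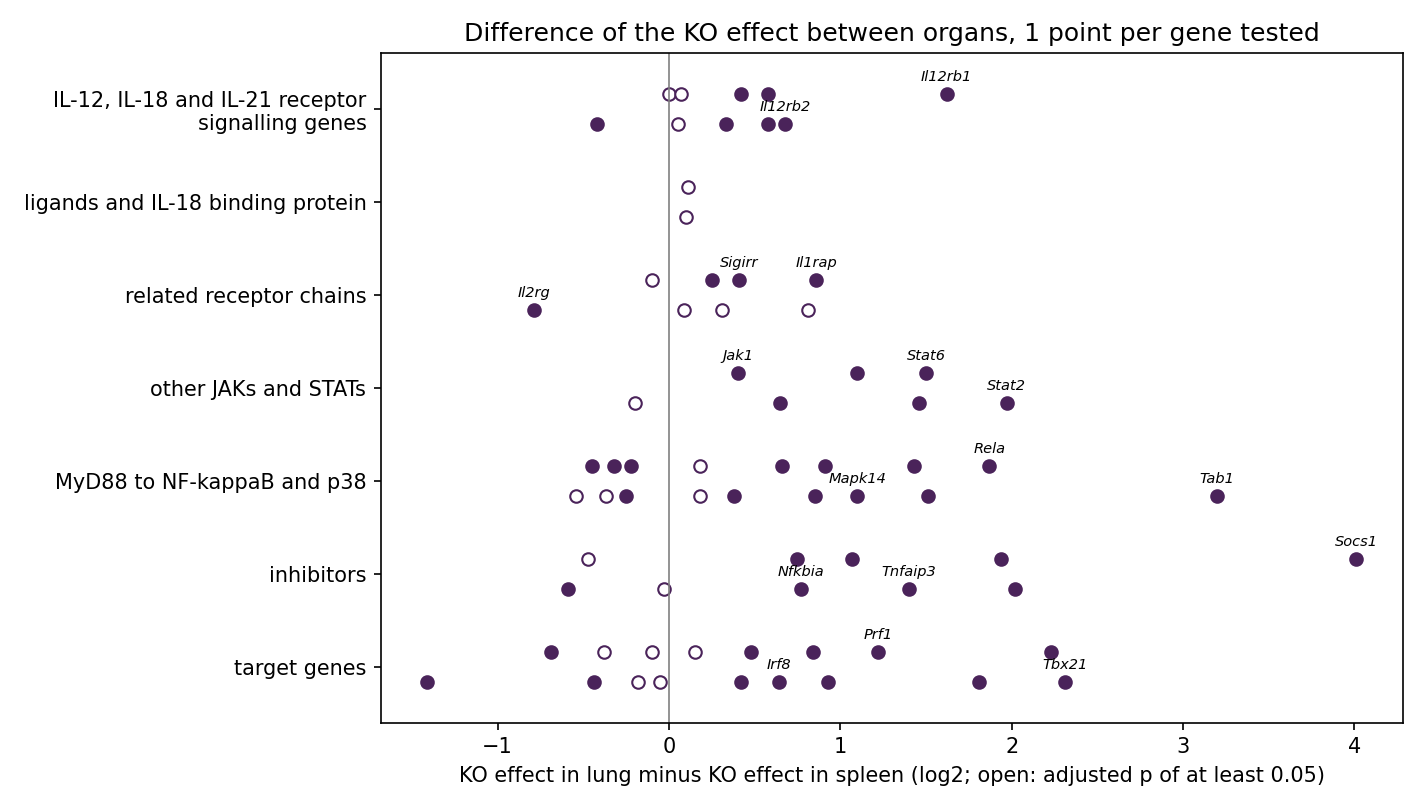
KO effect in lung minus KO effect in spleen (log2) for each gene tested, by list, with filled points for adjusted p under 0.05. Labels mark the list genes named by smallest p, with Il12rb1 and Il12rb2. Socs1 is farthest to the right at 4.01, Il2rg has the lowest labelled value at -0.79, and most filled points lie right of 0.

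Of the ligands, Il12b, Il21 and Il23a, which encode IL-12 p40, IL-21 and IL-23 p19, had no read in any library, and Ebi3 had 1 read in all. The floor of 3 reads corresponds to 0.113 to 0.958 CPM per library. Of the 2 genes of this list that were tested, 1 was lower in both organs and 0 were higher, and the difference passed for 0. It was Il18bp, the secreted protein that binds IL-18, named after its values were seen. It was at 7.20 and 6.72 CPM in lung WT, 3.47 and 3.53 CPM in lung KO, 4.99 and 3.62 CPM in spleen WT, and 1.63 and 1.91 CPM in spleen KO. The KO libraries lay below the WT libraries of the same organ, on 5 to 58 reads each. The log2 change was -1.0 (SE 0.26, adjusted p 0.00147) in lung, where DESeq2 gave an adjusted p of 0.0658, and -1.11 (SE 0.28, adjusted p 0.00109) in spleen, where it was 0.0740 without spleen KO replicate 2. Among related receptor chains 2 were higher and 3 lower in lung, and 1 higher and 4 lower in spleen (2 higher and 5 lower, and 1 and 1, with the GC offset, and 3 higher and 1 lower in lung with library totals). The common γ-chain Il2rg, partner of IL21R, fell by 0.43 in lung and rose by 0.37 in spleen. Il1rap, the accessory chain of the IL-1 receptor, rose by 0.52 in lung and fell by 0.34 in spleen, the latter call being lost without spleen WT replicate 2 (-0.16, adjusted p 0.474), without spleen KO replicate 2, and with DESeq2 (adjusted p 0.232). Sigirr, an inhibitory member of that family, fell by 0.30 in spleen, with 0.11 in lung (adjusted p 0.205), and its difference was 0.41. Under the GC offset Sigirr was -0.24 in lung (adjusted p 0.00618), -0.02 in spleen (adjusted p 0.774) and -0.21 for the difference (adjusted p 0.0580, and 0.0443 with the replicate block). For the list, the difference was positive for 3 and negative for 1 (2 and 1 with RLE or upper-quartile scaling, 1 and 3 with the GC offset). Il23r, Il6ra and Il1r1 had at most 9 reads in any library and 0 in most.

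The other JAKs and STATs were 6 higher and 1 lower of 7 in lung, and 0 higher and 6 lower in spleen, with medians of 0.44 and -0.50. With the GC offset they were 4 higher and 1 lower in lung and 0 higher and 4 lower in spleen, with medians of 0.26 and -0.25. Stat6, the STAT factor of IL-4, rose by 0.75 in lung and fell by 0.75 in spleen. Stat2, of type I interferon signalling, rose by 0.44 in lung and fell by 1.53 in spleen, the lung call being lost with the GC offset (0.26, adjusted p 0.0752), with DESeq2 (adjusted p 0.0949) and without lung WT replicate 1 (adjusted p 0.0523). Jak1, which pairs with the common γ-chain receptors, rose by 0.28 and fell by 0.12, the spleen call being lost without spleen WT replicate 2 (-0.09, adjusted p 0.0700). The difference was positive for 6 and negative for 0, and for 6 and 1 with the GC offset.

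Below MYD88, 8 of 17 genes were higher and 1 lower in lung, and 4 were higher and 7 lower in spleen (3 and 9 with library totals, 4 and 8 with the GC offset). Rela, the p65 subunit of NF-κB, rose by 1.0 in lung and fell by 0.87 in spleen (0.59 and -0.54 with the GC offset). Mapk14, p38α, rose by 0.55 (0.35 with the offset) and fell by 0.55. Tab1, a partner of the kinase TAK1, rose by 1.03 (0.66 with the offset) and fell by 2.17. The difference was positive for 9 and negative for 4 of the 17 genes, for 10 and 1 with library totals, and for 10 and 3 with the GC offset. Irak4, named after its values were seen, was higher in KO than in WT in both organs. Its group means were 31.39 CPM in lung WT and 55.83 CPM in lung KO, and 37.45 CPM in spleen WT and 84.28 CPM in spleen KO.

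Inhibitors of these pathways were 7 higher and 2 lower of 10 in lung, and 1 higher and 6 lower in spleen (6 and 2, and 1 and 4, with the GC offset). The median change moved under that offset from 0.58 to 0.27 in lung, from -0.34 to -0.11 in spleen, and from 0.92 to 0.36 for the difference. Socs1, an inhibitor of JAK kinases, rose by 2.15 in lung (SE 0.17, adjusted p 4.1e-13) and fell by 1.85 in spleen (SE 0.13, adjusted p 1.4e-14). Tnfaip3 (A20) rose by 0.60 and fell by 0.80, and Nfkbia (IκBα) rose by 0.56 (0.35 with the offset) and fell by 0.21, the latter spleen call being lost with the GC offset (-0.06, adjusted p 0.248).

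Known target genes of IL-12 and IL-18 in NK and Th1 cells were 8 higher and 1 lower of 17 tested in lung (7 and 3 with the GC offset), and 6 higher and 7 lower in spleen (8 and 7). The median changes were 0.27 and -0.05, and -0.01 and 0.05 under that offset. Tbx21 (T-bet) rose by 1.13 in lung and fell by 1.18 in spleen, Prf1 (perforin) rose by 0.74 and fell by 0.48, and Irf8 rose by 0.37 and fell by 0.27. Each of these stayed called with the GC offset, with 0.73 for Tbx21 in lung, -0.31 for Prf1 in spleen, and 0.20 and -0.17 for Irf8. The difference was positive for 9 and negative for 3 (7 and 5 with the GC offset). Prf1 also stands in the list of NK cell markers, and Il10 had 14 reads in all. Ifng, named after its values were seen, was higher in KO than in WT in both organs. Its group means were 93.35 CPM in lung WT and 182.18 CPM in lung KO, and 80.94 CPM in spleen WT and 111.15 CPM in spleen KO.

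Over the 8 libraries, the genes with the log2 CPM pattern most like that of Il12rb1 were Mta3, Dhx8 and Pfkp (Pearson's r 0.992, 0.990 and 0.988), out of 5103 genes compared. For Il12rb2 they were Rab6a, Cx3cr1 and Hmha1 (0.994, 0.993 and 0.992). These are descriptions over 8 points that fall into 4 groups.

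**Figure D5:**
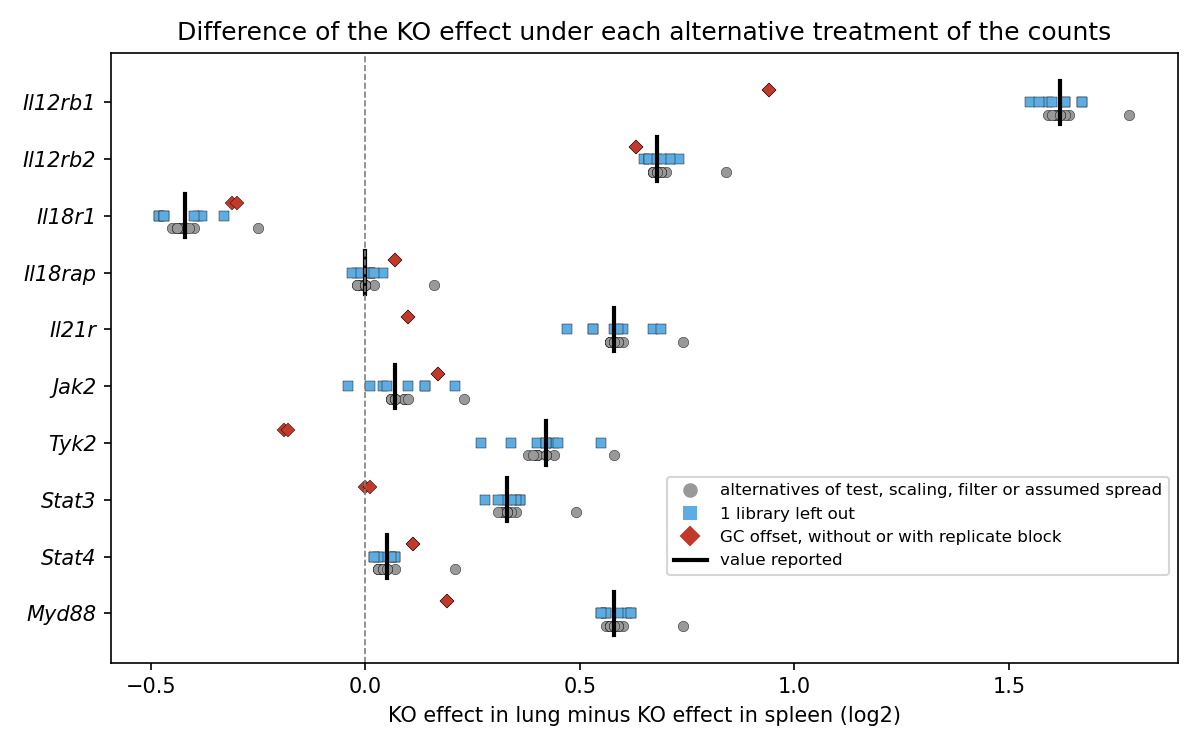
KO effect in lung minus KO effect in spleen (log2) for each of the 10 genes, as reported (black line) and under each alternative: other tests, scalings, filters or assumed spreads (gray), 1 library left out (blue), and the GC offset (red). The red points of Tyk2 lie at -0.19 and -0.18 and those of Stat3 at 0.00 and 0.01, whereas those of Il12rb2 lie at 0.63 beside a reported 0.68.

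The tests rest on 2 libraries per group that differed little more than counting error allows, with a common biological coefficient of variation of 2.50%. No exact permutation test of 2 against 2 libraries can give a p below 0.333. The sources used here do not say whether libraries came from separate mice, so the p-values measure only the spread between these libraries, which may be technical.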

How the data were processed

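RNA-seq counts of 8 NK cell libraries were analyzed, grouped by the organ and genotype in the sample labels. Per the labels, the authors prepared libraries with a NEBNext Ultra kit, sequenced reads of 50 bp, aligned them to mm10 (GRCm38) with HISAT2 2.1.0 and counted them on genes with HTSeq 0.11.1. The study's methods name another version of the kit and of HTSeq. They deposited raw counts per gene symbol, without normalization. The annotation and the strand setting are not given in the sources used here. HTSeq's categories of uncounted reads were left out of library sizes, and genes took 44.3% to 46.6% of uniquely placed reads.

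Counts were analyzed in R 4.3.3 with edgeR 4.0.16 (filterByExpr, TMM, quasi-likelihood test, 1 mean per group over all 8 libraries) with Benjamini-Hochberg adjustment over 12595 genes, called at 0.05. Standard errors were derived from the F statistic. Positions and exon lengths of genes, and the GC content of their longest transcripts, were read from GENCODE M21, and 1336 of the 48321 symbols were not matched there. The procedure was run on simulated counts drawn with the spread estimated from these libraries. That run cannot show whether calls would hold at a larger spread between mice. Depth was 3132963 to 26482366 reads per library, and floors of 3 reads cover counting error only. Alternatives were scaling by RLE, by upper quartiles or by library totals, dropping the filter or asking for 10 counts in each library, DESeq2 1.42.0, edgeR's likelihood ratio test, an assumed biological coefficient of variation of 0.1 or 0.2, only the 4 libraries of a comparison, a replicate block, a GC offset (spline with 5 degrees of freedom) without and with that block, and leaving out each library.

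The 10 genes, the pathway lists and the marker lists were chosen with earlier results of these data known. All 10 genes are named in every comparison. Of each pathway list, the up to 3 called genes with the smallest p for the difference between organs are named, with any gene at 0 in most libraries. Serbp1, Acaa1a, Gm28177, 1700084C06Rik and Stat5a were named because they overlap members in the annotation. Il18bp, Ifng and Irak4 were named after their values were seen.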

Additional observations from a re-analysis of the deposited data

Results flagged for a closer look

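The effect of the deletion differed between organs, by the test of the difference itself, for 7 of the 10 genes. In lung minus spleen on the log2 scale, the difference was 1.62 for Il12rb1, 0.68 for Il12rb2, 0.58 for Il21r, 0.42 for Tyk2, 0.33 for Stat3, 0.58 for Myd88 and -0.42 for Il18r1. Il12rb1, Il12rb2 and Myd88 passed the test in both organs in opposite directions. The spleen call of Il12rb1 was lost with DESeq2 and with the GC offset (adjusted p 0.233 and 0.284). The lung call of Myd88 was lost with both as well (adjusted p 0.169 and 0.512). With DESeq2 the differences of Il21r and Tyk2 were not called (adjusted p 0.0737 and 0.0821). Il21r, Tyk2 and Stat3 passed it in spleen, where they were lower in KO, and Il18r1 passed it in spleen, where it was higher in KO. With the GC offset the difference was still called for Il12rb1 (0.94), Il12rb2 (0.63) and Il18r1 (-0.31). Each group held 2 libraries, too few to look for single libraries that stand apart.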

How the results depend on the processing

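Over the 50 values of the 10 genes in 5 comparisons and their alternatives, 895 kept direction and side of the threshold, 88 lost the call, 14 gained one and 43 changed sign, most of these at values near 0. Counts of the 10 genes called were 5 in lung (3 with DESeq2, 2 and 1 with an assumed coefficient of variation of 0.1 and 0.2, and 2 to 5 when 1 library was left out, with 2 without lung KO replicate 2 and 3 without lung WT replicate 2), 8 in spleen (4 and 0 with the assumed values, and 5 to 8 when 1 library was left out, with 5 without spleen WT replicate 2), 7 for the difference (3 and 1, 3 with the GC offset without or with the block, and 6 to 7), 6 between organs in WT (2 and 0, and 5 to 6) and 7 in KO (2 at 0.2, and 7 throughout). Genes of the pathway lists called were 40 in lung (10 at 0.2), 43 in spleen (23 and 10), 43 for the difference (16 at 0.2), 40 between organs in WT (26 and 12) and 48 in KO (19 at 0.2). The 0 calls in spleen and in WT at 0.2 belong to edgeR's likelihood ratio test, where 0 of the 10 also had an unadjusted p under 0.05, beside 8 and 6 calls by the quasi-likelihood test.

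Signs changed as follows. With the GC offset, first without and then with the block, Il21r was -0.16 and -0.16 in lung and -0.18 and -0.18 between organs in KO, Myd88 was -0.05 and -0.04 in lung, Tyk2 was -0.19 and -0.17 in lung and -0.19 and -0.18 for the difference, and Il18rap was 0.00 and 0.00 between organs in KO. Tyk2 in spleen was 0.01 with offset and block. With library totals Stat3 in lung was 0.07, Stat4 in spleen -0.02, Tyk2 between organs in WT -0.03 and Il18rap between organs in KO 0.05. Library totals moved the median of all genes to 0.19 for the difference and -0.12 between organs in WT. Il18r1 between organs in WT was 0.01 with RLE scaling, 0.02 with DESeq2, 0.01 and 0.02 with the assumed values, and -0.04 to 0.06 when 1 library was left out. Il18rap for the difference was -0.02 with RLE scaling and DESeq2, -0.01 with upper-quartile scaling or no filter, and -0.03 to 0.04 when 1 library was left out. Between organs in WT it was 0.00 with RLE scaling and DESeq2 and -0.05 to 0.02 when 1 library was left out, and in KO 0.01 with at least 10 counts and -0.03 to 0.02 when 1 was left out. When 1 library was left out, values also spanned 0 for Il18r1 in lung (0.00 to 0.15), Tyk2 between organs in WT (-0.05 to 0.16), and Jak2 in spleen (-0.05 to 0.21) and for the difference (-0.04 to 0.21). The cause was not tested. Fits to 4 libraries give no value for the difference between organs.

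Deviations of equally numbered libraries correlated by -0.076 to 0.169 over 6 pairs of groups. Libraries of a group differed little more than counting error allows, so these values cannot tell whether equal numbers share a mouse. The replicate block gave 4, 8, 7, 6 and 7 calls in place of 5, 8, 7, 6 and 7, the one lost being Stat4 in lung (adjusted p 0.0514).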
